A study of Gallus gallus with 6 samples.

Results

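A set of 10 cell adhesion molecules of the immunoglobulin superfamily was followed in sorted spinal cells of the chick embryo: ALCAM, the L1 family members CHL1, NRCAM and NFASC, NCAM1, and the contactins CNTN1, CNTN2, CNTN3, CNTN4 and CNTN5. The genes were chosen by family, with earlier results of these data known. CNTN6 and NCAM2, of the same families, are given apart as relatives. Each of the 10 genes was read through every probe set of the array that carries its symbol alone. These were 26 of 38439 probe sets and 10 of 13009 genes. White-Leghorn embryos of wild-type genotype received plasmids by electroporation on embryonic day 3, and tissue was taken 24 h afterwards, on embryonic day 4. Both groups received Tubb3:Cre, a Cre recombinase driven by a TUBB3 enhancer with a minimal promoter, together with a floxed CAG vector. In the 3 control pools the vector gave membrane GFP alone, and in the 3 TcfEnR pools it gave membrane GFP together with the DNA-binding HMG box of Tcf3 fused to the engrailed repressor, a construct that represses genes bound by Tcf factors. Neural tubes at spinal cord level were pooled, dissociated with trypsin and sorted for GFP, and the amplified RNA of each pool was hybridized to 1 Affymetrix GeneChip Chicken Genome Array. GFP depends on uptake of the plasmids and on activity of the TUBB3 enhancer, apart from leakage of the vectors, so that the pools hold a selected part of the neural tube.

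The proteins studied here sit on the surface of growing axons and migrating neurons, where their immunoglobulin domains bind copies of themselves, each other, or other receptors. L1 family proteins span the membrane and are held to the spectrin and actin cortex by ankyrins, whereas contactins have no cytoplasmic part and are anchored by a lipid. In the embryonic spinal cord these molecules are known for bundling axons and for guiding motor and commissural axons, and NCAM1 in addition carries polysialic acid, a bulky sugar chain that weakens adhesion.

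Values are log2 signals made by robust multi-array average (RMA), so that a difference of 1 stands for a 2-fold change in signal. A probe set was called lower or higher at an adjusted p of 0.05 (limma, Benjamini-Hochberg over all 38439 probe sets), and each gene was represented by its brightest probe set over the 6 arrays. Signals of different probe sets depend on their probes, so that the genes are not ranked by level. Arrays of the same group correlated at 0.978 to 0.991 and arrays of different groups at 0.888 to 0.917 over all probe sets. The 5th percentile of the signal was 3.24 to 3.39 per array, and values near it leave little room to fall. The sorted cells are described in the labels as neural progenitors past their last division, and both neuron and progenitor markers gave signals far above that level. Of 9 neuron markers, 8 were lower in TcfEnR pools, and their mean signal was 11.80, 11.32 and 10.61 in control pools 1, 2 and 3 and 8.63, 8.43 and 8.47 in TcfEnR pools 1, 2 and 3. Of 8 neural progenitor markers 6 were lower, with mean signals of 10.88, 11.00 and 11.40 in control pools and 9.78, 9.52 and 9.43 in TcfEnR pools. Of 5 blood and macrophage markers 4 were higher, with mean signals of 7.60 to 7.94 in control pools and 8.25 to 9.64 in TcfEnR pools. Markers of motor neurons were lower in 5 of 5 cases, all past 4-fold and with a median of −3.78, and their mean signal was 8.85 to 10.19 in control pools and 5.73 to 6.06 in TcfEnR pools. Of the markers of dorsal and commissural neurons 2 of 3 were lower, with mean signals of 7.12 to 8.41 and 6.22 to 6.44. Those of neural crest and glia were lower in 2 of 2 cases, those of the floor plate in 1 of 2 and those of mesenchyme and muscle in 1 of 5. Of 4 endothelial markers 0 were lower or higher (limma), and 2 were higher at an unadjusted p under 0.05. The part of these shifts in the results was not tested.

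ALCAM, the 3 L1 family members and NCAM1 were lower in TcfEnR pools. By contrast, 0 of the 5 contactins in the set were called by the brightest probe set (limma), with 1, CNTN4, lower at an unadjusted p under 0.05. CNTN6, a contactin kept among the relatives below, was called higher (log2 0.48, limma adjusted p = 0.0163). The fall was 21.0-fold for ALCAM, 8.43-fold for CHL1, 3.78-fold for NRCAM, 2.76-fold for NCAM1 and 2.06-fold for NFASC. Thus 5 of 10 genes were lower, 0 were higher (0 also at an unadjusted p under 0.05), and 2 were lower past 4-fold. Among all 13009 genes, 32.6% were lower, 25.0% higher and 3.46% lower past 4-fold. Their median was −0.81 on the log2 scale, against −0.09 over all genes. Without ALCAM and CHL1, which had the deepest falls of the 10, 3 of 8 genes were lower, 0 lower past 4-fold, and the median was −0.53. The share lower was then close to that of all genes. Leaving out genes by the depth of their fall lowers this share by construction, so the closeness is only a description. Control pool 3 bore on the count of 5 of 10 genes, since without it 8 of 10 were called lower, with CNTN1, CNTN2 and CNTN4 added. CNTN4 counts here by its brightest probe set alone. Without control pool 3 its probe sets Gga.676.1.S1_at and GgaAffx.22501.1.S1_at were still called higher (log2 0.86 and 0.65, limma adjusted p = 0.00298 and 0.0109). The medians of −0.81 and −0.53 both take in the CNTN4 value of −0.59. With the mean over a gene's probe sets, the median of the 10 genes was −0.79. With array weights, and with quantile normalization repeated, 6 of 10 were lower. In these sorted pools, fewer cells of a type and less RNA per cell cannot be told apart.

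**Figure D1:**
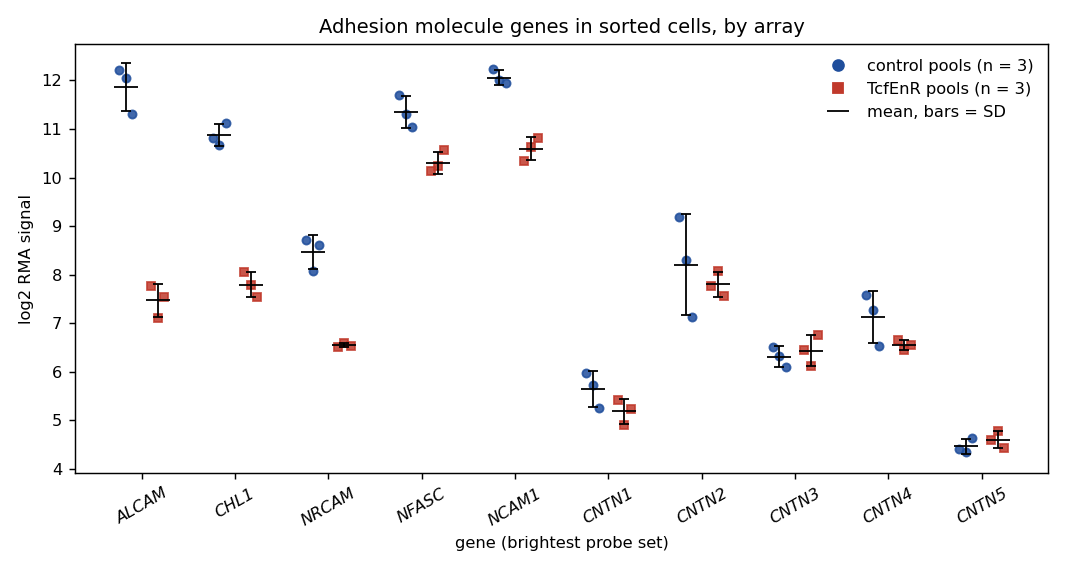
Log2 RMA signal of the 10 genes, each by its brightest probe set, in 3 control pools (blue) and 3 TcfEnR pools (red), with horizontal lines for the mean and bars for the SD. ALCAM, CHL1, NRCAM, NFASC and NCAM1 show 2 separate groups of points, while the pools of each of the 5 contactins overlap.

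By probe set, 14 of 26 were lower, 3 higher and 9 not called, and 8 were lower past 4-fold. Of these 8, 3 read ALCAM, 3 CHL1, 1 NRCAM and 1 NCAM1. Probe sets of the same gene are not independent, and by gene 2 of 10 were lower past 4-fold. The names of 10 of the 26 end in _s_at or _a_at, which marks probes that can match several transcripts. Over all probe sets 26.2% were lower, 26.5% higher and 2.96% lower past 4-fold. With arrays centred on their 75th percentile instead, 19.0% of all probe sets were lower and 39.0% higher, and 14 of the 26 were lower and 5 higher. In 14 of the 26 the 3 TcfEnR arrays all lay below the 3 control arrays, as they did in 30.2% of all probe sets. Bright probe sets were lower more often in general. Of the 26, 6 lay in the brightest 20% of probe sets and all 6 were lower, 3 of them past 4-fold, against 41.1% and 3.13% in that brightness class. These 6 belong to ALCAM, CHL1, NFASC and NCAM1 only. Another 6 lay in the dimmest 25%, and 2 of these were lower. The share of all probe sets lower in that class was not taken, so this count cannot be called high or low.

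**Figure D2:**
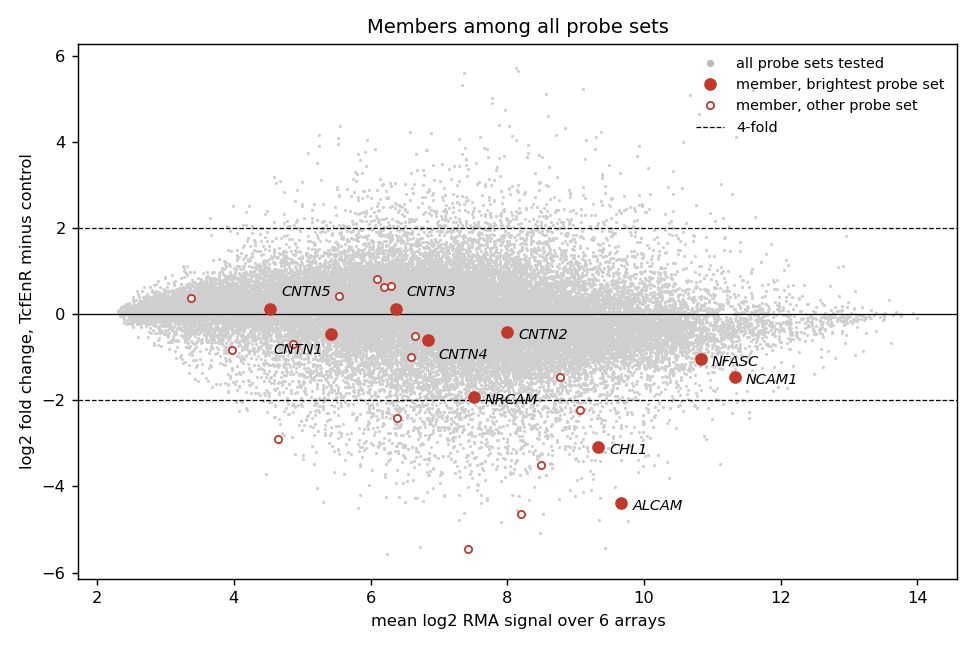
Log2 fold change, TcfEnR minus control, against the mean log2 RMA signal over 6 arrays, for all 38439 probe sets (grey) and the 26 probe sets of the 10 genes (red, filled for the brightest of each gene). Dashed lines mark 4-fold. By their brightest probe sets, ALCAM and CHL1 lie below the lower line while the contactins lie between −0.59 and 0.13.

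ALCAM, known in chick as DM-GRASP, is a homophilic adhesion molecule of motor, sensory and commissural axons and of the floor plate. Its brightest probe set, Gga.2734.1.S1_at, read 12.22, 12.06 and 11.31 in control pools 1, 2 and 3 and 7.77, 7.10 and 7.55 in TcfEnR pools 1, 2 and 3. The groups were far apart, and control pool 3 was the lowest of the controls. The mean went from 11.86 ± 0.48 (SD, n = 3) to 7.47 ± 0.34 (SD, n = 3), a log2 fold change of −4.39 (SE 0.26, limma adjusted p = 5.40e-06), which left 4.77% of the control signal. Its fall ranked 15 among all probe sets. A second ALCAM probe set, GgaAffx.20275.1.S1_s_at, read 10.46, 10.62 and 9.35 in control pools and 4.59, 4.38 and 5.12 in TcfEnR pools, a 43.6-fold fall (log2 −5.45, SE 0.33, limma adjusted p = 5.82e-06). It ranked 2 among all falls on the array. The third, Gga.2734.1.S2_at, read 10.88, 10.91 and 9.74 in control pools and 6.65, 5.55 and 5.44 in TcfEnR pools (log2 −4.63, SE 0.38, limma adjusted p = 2.67e-05). Control pool 3 was the lowest control in each of these 3 probe sets, and still lay well above the highest TcfEnR pool.

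The fourth ALCAM probe set, Gga.2734.1.S3_at, did not follow the others. It was dim, with 5.31, 5.02 and 5.64 in control pools and 5.56, 5.83 and 5.86 in TcfEnR pools, and the groups overlapped. Its log2 fold change of 0.43 (SE 0.18) did not pass the test (limma adjusted p = 0.0708), but it was called higher with arrays centred on their 75th percentile (log2 0.64, adjusted p = 0.0136), with array weights (0.50, adjusted p = 0.0322) and without control pool 3 (0.59, adjusted p = 0.015). Over all alternatives its adjusted p ran from 0.0136 to 0.226.

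CHL1, the close homolog of L1, promotes neurite growth and in mouse takes part in semaphorin responses through neuropilins. Its brightest probe set, GgaAffx.22404.6.S1_s_at, read 10.81, 10.68 and 11.12 in control pools and 8.06, 7.78 and 7.54 in TcfEnR pools. The mean fell from 10.87 ± 0.23 to 7.80 ± 0.26 (SD, n = 3 per group), a log2 fold change of −3.08 (SE 0.18, limma adjusted p = 5.18e-06). All 4 CHL1 probe sets were lower. Gga.9521.2.S1_s_at was the most even, with 10.14, 10.13 and 10.47 in control pools and 6.71, 6.71 and 6.78 in TcfEnR pools (log2 −3.51, SE 0.14, limma adjusted p = 1.92e-06). The probe set GgaAffx.22404.1.S1_s_at fell 5.30-fold, from 7.58 ± 0.32 to 5.17 ± 0.08. The dimmest, GgaAffx.22404.4.S1_at, fell only from 5.21 ± 0.23 to 4.52 ± 0.13 (limma adjusted p = 0.00531). In contrast to the 3 ALCAM probe sets that fell, the highest control value of every CHL1 probe set was that of control pool 3.

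NRCAM is an L1 family member that binds CNTN2 and in chick takes part in the choice of commissural axons to cross the floor plate. Its brightest probe set, Gga.1987.1.S1_a_at, read 8.72, 8.07 and 8.61 in control pools and 6.52, 6.59 and 6.54 in TcfEnR pools. The TcfEnR pools lay within 0.07 of each other and well below the lowest control. The log2 fold change was −1.92 (SE 0.18, 95% interval −2.32 to −1.51, limma adjusted p = 5.00e-05), which left 26.5% of the control signal and fell short of 4-fold. The other NRCAM probe set, Gga.1987.1.S2_at, went from 6.51, 5.96 and 5.79 to 2.98, 3.25 and 3.33 (log2 −2.90, SE 0.20, limma adjusted p = 1.19e-05). Its TcfEnR values lay at the bottom of the signal range, at or near the 5th percentile of the arrays. The size of that fall is less certain than its direction.

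NFASC, or neurofascin, is an L1 family member that binds ankyrins and later gathers sodium channels at the axon initial segment and the nodes of myelinated axons. Its brightest probe set, Gga.4889.1.S1_s_at, read 11.69, 11.31 and 11.05 in control pools and 10.13, 10.23 and 10.56 in TcfEnR pools. The nearest pools of the groups were control 3 and TcfEnR 3, and they did not overlap. The log2 fold change was −1.04 (SE 0.19, 95% interval −1.48 to −0.61, limma adjusted p = 0.00187), which left 48.5% of the control signal. The probe set Gga.15999.1.S1_at read 10.13, 9.46 and 8.94 in control pools and from 7.84 to 8.27 in TcfEnR pools (log2 −1.47, SE 0.27, limma adjusted p = 0.00192). The third probe set, Gga.4889.1.S1_at, was dim, spread from 5.29 to 3.58 over the control pools and stayed between 3.49 and 3.62 in TcfEnR pools (log2 −0.83, limma adjusted p = 0.0749). Without control pool 3 it was called lower (log2 −1.23, adjusted p = 0.00297), as it was with array weights and, just, with the replicate number as a block (adjusted p = 0.0499), and over all alternatives its adjusted p ran from 0.00297 to 0.166.

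NCAM1 is a homophilic adhesion molecule of most neurons and of muscle, and the main carrier of polysialic acid. Its brightest probe set, GgaAffx.22381.3.S1_s_at, read 12.23, 12.01 and 11.94 in control pools and 10.34, 10.62 and 10.82 in TcfEnR pools. The log2 fold change was −1.46 (SE 0.16, 95% interval −1.83 to −1.10, limma adjusted p = 1.14e-04), which left 36.2% of the control signal. The control pools lay within 0.29 of each other, less than the gap between the groups. A second probe set, GgaAffx.22381.1.S1_s_at, fell past 4-fold, from 11.00, 10.39 and 9.17 to 8.04, 7.87 and 7.96 (log2 −2.23, SE 0.38, limma adjusted p = 0.00126). Its controls spread over 1.84, so that the size of its fall was set less precisely (95% interval −3.09 to −1.37). The third, GgaAffx.22381.3.S1_at, read 6.79 to 7.27 in control pools and 5.80 to 6.51 in TcfEnR pools (log2 −0.99, limma adjusted p = 0.00406). ST8SIA2, an enzyme that builds polysialic acid on NCAM1, was measured at 9.22, 9.11 and 9.17 in control pools and 8.19, 8.25 and 8.19 in TcfEnR pools. It fell by 0.96 on the log2 scale (SE 0.12, limma adjusted p = 2.46e-04), and the pools of each group differed by little. The related enzyme ST8SIA4 had no probe set with its symbol alone.

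**Figure D3:**
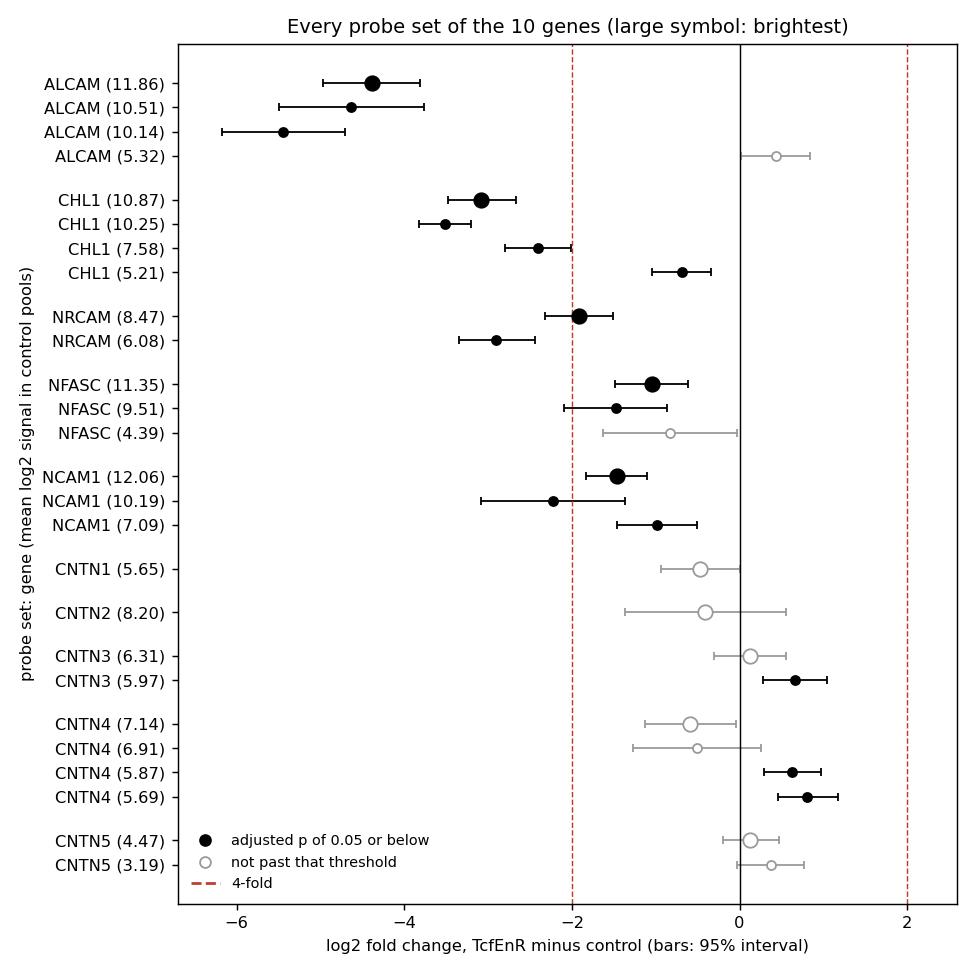
Log2 fold change, TcfEnR minus control, of the 26 probe sets by gene, with 95% intervals from limma. Numbers beside the names give the mean log2 signal in control pools, filled symbols passed an adjusted p of 0.05, large symbols are the brightest of each gene, and dashed lines mark 4-fold. The filled symbols of ALCAM, CHL1, NRCAM, NFASC and NCAM1 lie to the left of 0, and the 3 filled symbols of CNTN3 and CNTN4 lie to the right.

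The contactins differed from this picture. None of the 5 genes passed the test by the brightest probe set, and 3 dimmer probe sets of CNTN3 and CNTN4 were higher in TcfEnR pools. Most contactin probe sets were also dimmer. In mean signal, the brightest of CNTN1, CNTN2, CNTN3, CNTN4 and CNTN5 lay at percentiles 24.3, 70, 39.3, 48 and 14.5 of all probe sets. Those of ALCAM, CHL1, NRCAM, NFASC and NCAM1 lay at 60.9 to 98.5. The part of signal level in this contrast was not tested. CNTN2, known in chick as axonin-1, is the contactin best known from commissural and dorsal root ganglion axons. It read 9.19, 8.30 and 7.12 in control pools and 7.76, 8.07 and 7.57 in TcfEnR pools. The control pools spread over 2.07 on the log2 scale and enclosed all TcfEnR pools, so that the log2 fold change of −0.41 (SE 0.43, limma adjusted p = 0.45) had a 95% interval of −1.37 to 0.56. This interval leaves room for a fall of more than 2-fold as well as for a rise. The sign rested on single pools: without control pool 1 the value was 0.09 (limma adjusted p = 0.833), and without control pool 3 it was −0.95 (limma adjusted p = 0.012), the extremes of all alternatives.

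CNTN1, the founding contactin, is found on axons and later at the paranodes of myelinated fibres. It read 5.98, 5.72 and 5.25 in control pools and 5.41, 4.91 and 5.23 in TcfEnR pools. The groups overlapped at TcfEnR pool 1 and control pool 3. The log2 fold change was −0.47 (SE 0.21, limma adjusted p = 0.086), and it was called lower when quantile normalization was repeated (−0.58, adjusted p = 0.0441) and without control pool 3 (−0.67, adjusted p = 0.0126), in a range of 0.0126 to 0.305 over the alternatives. CNTN5, which in mouse marks subsets of sensory and auditory neurons, was dim throughout. Its brightest probe set ran from 4.35 to 4.64 in control pools and from 4.43 to 4.77 in TcfEnR pools, and the other from 3.09 to 3.27 and from 3.17 to 3.77. Neither passed the test (log2 0.13 and 0.37, limma adjusted p = 0.468 and 0.108). The dimmer probe set was called higher with arrays centred on the 75th percentile (0.58, adjusted p = 0.0208) and without TcfEnR pool 2 (0.56, adjusted p = 0.0187), in a range of 0.0187 to 0.309.

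CNTN3 and CNTN4 are contactins known in rodents from neurite growth and, for CNTN4, from olfactory and visual axon targeting. The brightest CNTN3 probe set, GgaAffx.22389.1.S1_at, read 6.52, 6.32 and 6.10 in control pools and 6.44, 6.11 and 6.75 in TcfEnR pools (log2 0.12, SE 0.19, limma adjusted p = 0.615). The other, Gga.15212.1.S1_s_at, read 6.05, 6.05 and 5.82 in control pools and 6.60, 6.37 and 6.93 in TcfEnR pools (log2 0.66, SE 0.17, limma adjusted p = 0.00995). Every TcfEnR pool lay above every control pool in the second and not in the first.

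CNTN4 was read by 4 probe sets, which split into pairs. GgaAffx.5214.1.S1_at, the brightest, read 7.58, 7.28 and 6.54 in control pools and 6.66, 6.44 and 6.55 in TcfEnR pools (log2 −0.59, SE 0.24, limma adjusted p = 0.0684). Gga.15188.1.S1_at had the same shape, with 7.40, 7.36 and 5.96 in control pools and 6.45, 6.46 and 6.28 in TcfEnR pools (log2 −0.51, SE 0.34, limma adjusted p = 0.234). In both, control pools 1 and 2 stood above all TcfEnR pools and control pool 3 did not. Without control pool 3 they were called lower (−0.88, adjusted p = 0.00141, and −0.98, adjusted p = 4.58e-04, limma), and over all alternatives the adjusted p ran to 0.204 and 0.554. The brightest was also called lower with array weights (log2 −0.64, limma adjusted p = 0.0223). The other pair was higher in TcfEnR pools. Gga.676.1.S1_at rose from 5.72, 5.56 and 5.78 to 6.67, 6.62 and 6.21 (log2 0.81, SE 0.16, limma adjusted p = 0.00256). GgaAffx.22501.1.S1_at rose from 5.67, 6.04 and 5.90 to 6.63, 6.55 and 6.33 (log2 0.63, SE 0.15, limma adjusted p = 0.00713). No direction can therefore be given for CNTN4 as a gene.

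The pools of the control group differed among themselves in most of these genes. Control pool 1 exceeded control pool 3 in 8 of the 10 genes, by 0.5 or more in 5 of them, whereas 42.3% of all 13009 genes were higher in pool 1. The difference on the log2 scale was 2.07 for CNTN2, 1.04 for CNTN4, 0.90 for ALCAM, 0.73 for CNTN1, 0.64 for NFASC, 0.43 for CNTN3, 0.29 for NCAM1 and 0.11 for NRCAM. CHL1 and CNTN5 went the other way, with −0.32 and −0.23. That of CNTN2 was exceeded by only 44 genes. In the same pools all 9 neuron markers were higher in pool 1 than in pool 3, by 0.60 to 1.93, and 7 of 8 progenitor markers were lower. STMN2, a microtubule regulator of growing axons, read 12.40, 11.59 and 10.48 in control pools 1, 2 and 3, and SOX2, a factor of neural progenitors, read 10.18, 10.26 and 11.22. The part of this difference between pools in the results was not tested. For ALCAM, CHL1, NRCAM, NFASC and NCAM1 it was smaller than the fall in TcfEnR pools, and each remained called by its brightest probe set without any 1 of the 6 arrays.

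**Figure D4:**
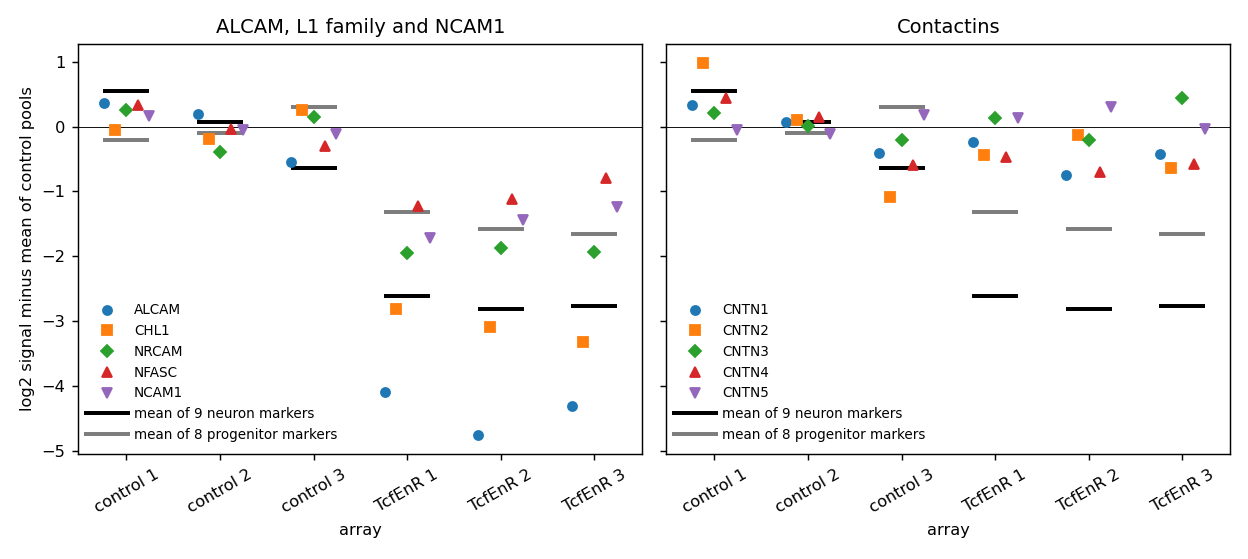
Log2 signal of each gene in each array minus its mean over the 3 control pools, for ALCAM, the L1 family and NCAM1 (left) and the contactins (right). Black bars give the mean of 9 neuron markers and grey bars that of 8 progenitor markers. Among control pools the neuron bar is highest in pool 1 and lowest in pool 3, as are ALCAM, NFASC, NCAM1, CNTN1, CNTN2, CNTN3 and CNTN4. In TcfEnR pools ALCAM and CHL1 lie below the neuron bar while the contactins stay above both bars.

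By position in the RefSeq annotation of the chicken assembly GRCg7b, several of these genes are neighbours. CHL1 lies between CNTN3 and CNTN6, with CNTN4 next to CNTN6. NRCAM lies next to CNTN1, and NFASC next to CNTN2. In each of these 3 places the L1 family gene was lower and the adjoining contactin was not called lower in the main results. For CNTN1 and CNTN2 this rested on control pool 3. Without that pool both were called lower (log2 −0.67, limma adjusted p = 0.0126, and −0.95, limma adjusted p = 0.012). The difference between neighbours was tested per array in 4 pairs with an exact two-sided permutation test, in which 3 arrays against 3 cannot go below p = 0.1. The fall of CHL1 exceeded the change of CNTN3 (difference −3.20 on the log2 scale) and that of CNTN6 (difference −3.56), with no overlap between the arrays of the groups (exact p = 0.1 each, 0.133 adjusted over the pairs). The change of NRCAM minus that of CNTN1 was −1.45, again with no overlap (exact p = 0.1, adjusted 0.133). That of NFASC minus CNTN2 was −0.64, and the arrays overlapped (exact p = 0.2, adjusted 0.2). The smallest p that this test can give, 0.1, lies above the threshold used for calls, so it could not show any of the 4 pairs to differ. The differences are given as a description, and the arrays of the groups overlapped only for NFASC and CNTN2.

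The genes whose signal followed ALCAM most closely over the 6 arrays, among 8775 genes in the brighter part of the array, were DCX, with a Pearson r of 0.9992, and NSMCE1 and USPL1, with 0.9990 each. DCX, a microtubule protein of migrating neurons, read 11.97, 11.61 and 11.19 in control pools and 7.83, 7.28 and 7.61 in TcfEnR pools. These 6 points fall into 2 groups, so that r mostly reflects the difference between them, and it is given as a description.

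Of 3 measured relatives, 2 were higher in TcfEnR pools. MCAM, an ALCAM relative of vessels and migrating cells, read 9.55, 9.55 and 9.24 in control pools and 10.50, 10.68 and 10.81 in TcfEnR pools (log2 1.22, SE 0.15, limma adjusted p = 2.12e-04). CNTN6 read 6.57, 6.30 and 6.63 in control pools and had a mean of 6.98 ± 0.03 (SD, n = 3) in TcfEnR pools (log2 0.48, SE 0.14, limma adjusted p = 0.0163), while NCAM2 did not pass the test (log2 0.46, adjusted p = 0.0548). MCAM and CNTN6 were not both called when control pool 2 or TcfEnR pool 2 was left out, which gave a count of 1. L1CAM and BCAM had no probe set with their symbol alone. None of the 3 was lower, by limma's adjusted or unadjusted p, and all 3 were higher at an unadjusted p under 0.05. The count called higher was 3 without control pool 1 and with arrays centred on their 75th percentile.

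Among 12 measured genes of other immunoglobulin adhesion families, 2 were lower and 7 higher, with a median log2 fold change of 1.18, while 32.6% of all genes were lower and 25.0% higher. DSCAML1, a homophilic molecule of self-avoidance, rose from 5.67, 5.86 and 5.83 to 9.08, 9.17 and 9.63 (log2 3.51, SE 0.17, limma adjusted p = 3.02e-06). OPCML, a lipid-anchored IgLON, rose by 1.92 on the log2 scale (SE 0.31, limma adjusted p = 9.11e-04). The 2 that fell were CADM2, a synaptic adhesion molecule (log2 −3.62, SE 0.45, limma adjusted p = 2.21e-04), and SDK1 (log2 −0.75, limma adjusted p = 0.00644). CADM1, LSAMP and DSCAM were not called. CADM2 was also low in control pool 3, with 8.89, 8.79 and 6.91 in control pools, and lay between 4.49 and 4.69 in TcfEnR pools. No test compared this list with the 10 genes.

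Of the extracellular and membrane partners of contactins and L1 proteins, 16 were measured, and 6 were lower and 4 higher, with a median of −0.24. These shares lie near the 32.6% lower and 25.0% higher of all genes. The largest falls were those of NRP1, the semaphorin receptor that pairs with L1 proteins, and of the receptor tyrosine phosphatases PTPRG and PTPRZ1, which bind contactins. NRP1 read 9.42, 9.51 and 8.19 in control pools and 3.74, 3.43 and 3.19 in TcfEnR pools (log2 −5.58, SE 0.33, limma adjusted p = 5.40e-06). The TcfEnR values lay at or near the 5th percentile of the arrays, so that the size of the fall is less certain than its direction. On the log2 scale PTPRG changed by −3.10 (SE 0.28, limma adjusted p = 4.38e-05) and PTPRZ1 by −3.05 (SE 0.32, limma adjusted p = 9.04e-05). CNTN1, which PTPRZ1 binds, was not called. TNR, the matrix protein tenascin-R and a ligand of CNTN1, went the other way, from 5.36, 5.51 and 5.43 to 7.95, 8.13 and 8.41 (log2 2.73, SE 0.15, limma adjusted p = 4.18e-06). The other 3 higher genes changed less: FGFR1, through which NCAM1 and L1 proteins signal, by 0.68, CNTNAP1, the paranodal partner of CNTN1, by 0.52, and EPHB2 by 0.44. Leaving out single arrays gave 4 to 7 lower and 1 to 4 higher genes in this list, and centring on the 75th percentile gave 4 lower. The count of 4 lower arose without control pool 2, TcfEnR pool 1 or TcfEnR pool 3, and that of 1 higher without TcfEnR pool 3, while 2 were higher without control pool 1, control pool 2 or TcfEnR pool 2.

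All 18 genes listed as cytoskeletal and signalling links were measured, and 11 were lower and 3 higher, with a median of −0.58, against 32.6% lower and 25.0% higher among all genes. The count of 11 depended on scaling, with 7 lower when quantile normalization was repeated and 6 with arrays centred on their 75th percentile. Leaving out single arrays gave 6 to 10 lower. The count was 6 without TcfEnR pool 2, and 8 without control pool 2, TcfEnR pool 1 or TcfEnR pool 3. A count of 6 of 18 is near the share of all genes. ANK2, an ankyrin that holds L1 family proteins to spectrin, read 10.11, 9.41 and 8.93 in control pools and 7.41, 7.70 and 7.35 in TcfEnR pools (3.99-fold lower, SE 0.27 on the log2 scale, limma adjusted p = 3.35e-04). FYN, a kinase downstream of NCAM1 and contactins, read 10.27, 10.29 and 9.87 in control pools and 8.57, 8.17 and 8.50 in TcfEnR pools (log2 −1.73, SE 0.17, limma adjusted p = 6.65e-05). In both, every TcfEnR pool lay below every control pool. ANK3, the ankyrin of the axon initial segment, named here after its value was seen, fell by 1.07 (SE 0.15, limma adjusted p = 4.30e-04). PRKCB, a protein kinase C, rose from 8.40, 8.01 and 7.54 to 10.19, 10.11 and 10.59 (log2 2.31, SE 0.23, limma adjusted p = 6.19e-05), and SHTN1 and ANK1 rose by 0.44 and 0.42. SPTAN1, AP2M1, DLG3 and GAP43 were not called, the last at a dim 5.25 to 5.66 over all arrays.

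**Figure D5:**
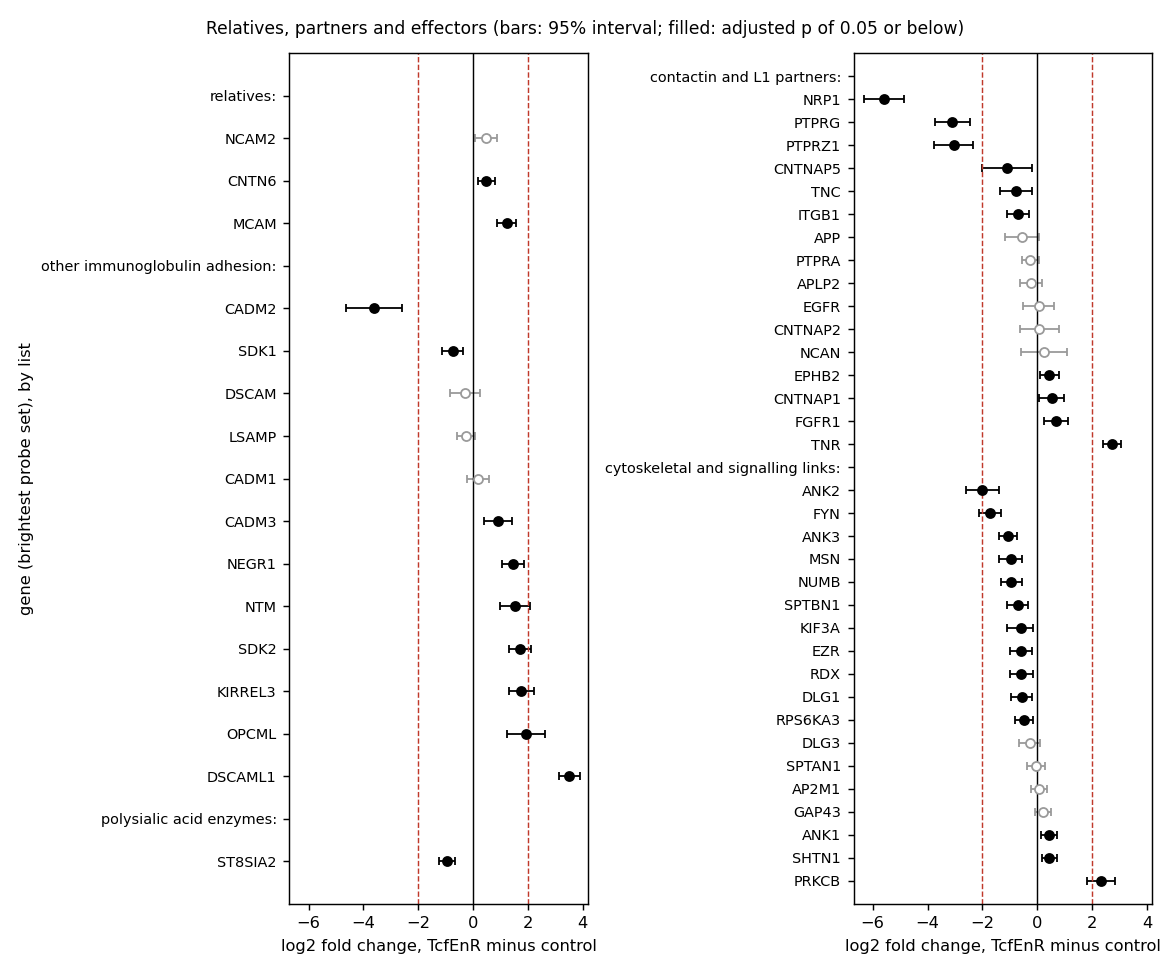
Log2 fold change, TcfEnR minus control, of relatives, other immunoglobulin adhesion genes, partners, intracellular links and the polysialic acid enzyme ST8SIA2, each by its brightest probe set, with 95% intervals from limma. Filled symbols passed an adjusted p of 0.05 and dashed lines mark 4-fold. NRP1, CADM2, PTPRG and PTPRZ1 lie left of the lower line, and DSCAML1, TNR and PRKCB right of the upper one.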

How the data were processed

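GFP+ cells from 3 control and 3 TcfEnR pools were profiled on GeneChip Chicken Genome Arrays. The pools were separate biological samples per the labels, and the p-values measure the spread between these pools. The authors deposited log2 values made by RMA (background correction, quantile normalization and a summary value per probe set). Which version of the software ran RMA is not given in the sources used here. RNA was amplified before labelling, and all changes are relative to the array as a whole. The deposited arrays share a median of 6.93, but their upper percentiles differ between the groups. The 75th percentile was 8.46 to 8.48 in control pools and 8.25 to 8.27 in TcfEnR pools. The deposited values are thus not matched over all quantiles, and repeating quantile normalization changed some counts. The precision is limited by the 3 arrays per group.

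Symbols were taken from the array's annotation table, and the neighbour order from RefSeq. The 96 control probe sets were left out, and probe sets with several symbols or none were not used as genes. TcfEnR was compared with control, unpaired, with limma 3.58.1 in R 4.3.3 (linear model and empirical Bayes), with Benjamini-Hochberg adjustment over 38439 probe sets. The methods of the study name thresholds but no test, and the 4-fold threshold is a log2 fold change of 2 in size. Intervals cover 95%. The scripts were tested on simulated data.

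The 10 genes, their partner lists and the marker lists were chosen with earlier results of these data known. All probe sets of the 10 genes are described, those of CNTN1, CNTN2 and CNTN5 by their values alone. Of each partner list, the 3 genes with the largest called changes and those in counts of 5 or fewer are named. Alternatives were quantile normalization repeated, centring on the 75th percentile, leaving out the dimmest 25% of probe sets, a variance trend with robust estimation, array weights, a replicate block, the mean over the probe sets of a gene, and leaving out each array. The same alternatives, apart from the mean over the probe sets of a gene, were applied to the partner lists after the data had been seen. The permutation test of neighbouring pairs was not among the planned tests either. Promoter and protein sequences were not analysed here.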

Additional observations from a re-analysis of the deposited data

How the results depend on the processing

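The 17 called probe sets of the 10 genes kept direction and call under every alternative that gave a value. Centring on the 75th percentile moved the median log2 fold change of all probe sets from 0.02 to 0.23, and 5 probe sets of the 10 genes were then higher instead of 3. The median of the 10 genes was −0.66 with quantile normalization repeated and −0.60 with the 75th percentile. With quantile normalization repeated, the brightest probe sets of ALCAM, CHL1, NRCAM, NFASC and NCAM1 gave −4.23, −2.86, −1.84, −0.74 and −1.21. Each was a smaller fall than in the main results and stayed called. The 0.23 is over probe sets, and a median over all genes was not taken in that setting. Without the dimmest probe sets, which removed CNTN1 and CNTN5, the median of the member genes was −1.25. Leaving out single arrays gave medians of −1.07 to −0.62, 5 to 8 genes lower (8 without control pool 3), 2 to 3 of them past 4-fold, 14 to 19 probe sets lower, 3 to 4 higher and 7 to 9 lower past 4-fold. The sign reversed for 3 uncalled values: CNTN2 ran from −0.95 to 0.09 over the left-out arrays (0.09 without control pool 1), the brightest CNTN3 probe set from −0.04 to 0.28 (−0.04 without TcfEnR pool 3), and the brightest CNTN5 probe set was −0.02 with quantile normalization repeated. The cause was not tested. The TcfEnR signals of the dim NFASC probe set, the second NRCAM probe set and NRP1 lay near the 5th percentile of the arrays, 3.24 to 3.39, which limits how well the size of a fall can be read.

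Control and TcfEnR pools share replicate numbers, but pools with the same number did not deviate together over all probe sets (r of −0.04, 0.02 and −0.06). With 3 pools per group this cannot settle whether the numbers mark pairs. With the replicate block 15 probe sets were lower, 3 higher and 8 lower past 4-fold, 5 genes were lower, 2 of them past 4-fold, 0 were higher, and the median was −0.81. The block added the call of 1 dim NFASC probe set (log2 −0.83, limma adjusted p = 0.0499).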
